A study of Mus musculus with 3 samples.

Results

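The GIMAP genes (GTPases of the immunity-associated protein family) encode small GTPases made mainly by lymphocytes. The 8 members Gimap1, Gimap3, Gimap4, Gimap5, Gimap6, Gimap7, Gimap8 and Gimap9 were matched by symbol in the deposited gene tables, and all 8 were found among the 30406 gene identifiers that the 3 libraries share. Most family members sit on membranes of the endoplasmic reticulum, lysosome, mitochondrion or lipid droplet and govern how long a lymphocyte survives. Loss of Gimap5 or Gimap1 depletes peripheral T cells in mice, Gimap3 is a close paralogue of Gimap5 with an overlapping role in T cell survival, and Gimap4 speeds the execution of apoptosis. Gimap6 binds an autophagy adaptor, and Gimap7 can stimulate the GTP hydrolysis of its partners.

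Droplet single-cell libraries of thymic T cells that bound the CD1d tetramer, with surface TCRβ and without CD24 or NK1.1, were read for these genes; invariant natural killer T (iNKT) cells are the population this gate is meant to hold. The C57BL/6 library came from mice aged 7 weeks that had no bone marrow transplantation (BMT). The BM only and BM + Spl libraries came from mice aged 16 weeks, 9 weeks after BMT, that were F1 (C57BL/6 x BALB/c) hosts, had been given a lethal dose of radiation and had then all received C57BL/6 marrow depleted of T cells. The BM + Spl recipients also received C57BL/6 splenic cells and had graft-versus-host disease (GvHD), and the BM only recipients did not. CD8+ cells were depleted before the sort in each group. With 1 library per condition there was no replicate error and no test, so each interval given here is an exact 95% interval for counting error alone.

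UMIs (unique molecular identifiers, 1 per captured transcript) were counted in cells with more than 200 but fewer than 6000 genes and less than 10% of their UMIs from mitochondrial genes. The C57BL/6 library then held 4434 cells, BM only 5970 cells and BM + Spl 5557 cells, and sets of 3 values follow this order throughout. Their median depths were 12086.5, 4740 and 6495 UMIs per cell. The C57BL/6 library also differed from the others in the software version that made it, in the age of the mice and in its gene table, and the labels do not say which kit made which library. These differences cannot be told apart from transplantation, so values of the C57BL/6 library were set beside the others without a ratio. The BMT libraries shared 43 cell barcodes, and 317 and 527 of their cells carried B cell, plasmacytoid dendritic or myeloid markers against 10 in the C57BL/6 library. The paper states the same cutoffs but reports fewer cells for each BMT library. The BMT values here therefore include cells that it did not analyse. Cells were sorted into subsets by UMIs of marker lists. The summed NKT1 list (T-bet, Nkg7, Ccl5 and 5 others) stood at 4542, 5902 and 4112 counts per 1000000 UMIs (CPM) in NKT1-marker cells and at 179, 169 and 147 CPM in NKT2-marker cells. The NKT2 list stood at 445, 381 and 544 CPM in NKT1-marker cells and at 2508.5, 2227 and 2357 CPM in NKT2-marker cells. The cells were gated on these same lists, so the values describe the gates and do not check them.

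The family lies in 1 stretch of mouse chromosome 6 (GRCm38, positions 48647234 to 48770851, 123618 bp), in the order Gimap8, Gimap9, Gimap4, Gimap6, Gimap7, Gimap1, Gimap5 and Gimap3. Gimap6 and Gimap3 are read from the minus strand and the others from the plus strand. The predicted gene Gm28053 overlaps Gimap7, Gimap1 and Gimap5, and the antisense gene Gimap1os overlaps Gimap1. Gimap1os had 342 UMIs in the BM only library and 289 in the BM + Spl library, against 7037 and 8432 UMIs of Gimap1 in T cells. The sources used here do not say how reads shared by Gimap3 and Gimap5 were treated.

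The 250 bases before the RefSeq start of Gimap3, Gimap4 and Gimap7 are shown because the subset and GvHD comparisons that follow turn on these 3 members. Capitals mark motif matches, either GTAAACA (FOXO) or ACCACA, the reverse complement of TGTGGT (RUNX).
Gimap3 (chr6:48770852-48771101, minus strand, GRCm38.p6): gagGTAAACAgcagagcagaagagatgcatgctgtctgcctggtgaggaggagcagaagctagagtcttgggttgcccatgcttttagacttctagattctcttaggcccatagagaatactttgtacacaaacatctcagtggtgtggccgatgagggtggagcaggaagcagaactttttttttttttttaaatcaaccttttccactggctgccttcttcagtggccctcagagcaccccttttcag
Gimap4 (chr6:48684328-48684577, plus strand, GRCm38.p6): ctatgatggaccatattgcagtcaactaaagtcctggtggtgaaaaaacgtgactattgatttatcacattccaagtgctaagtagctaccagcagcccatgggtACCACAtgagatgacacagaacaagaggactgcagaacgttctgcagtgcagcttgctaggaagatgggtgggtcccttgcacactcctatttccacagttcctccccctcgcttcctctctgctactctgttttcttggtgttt
Gimap7 (chr6:48718371-48718620, plus strand, GRCm38.p6): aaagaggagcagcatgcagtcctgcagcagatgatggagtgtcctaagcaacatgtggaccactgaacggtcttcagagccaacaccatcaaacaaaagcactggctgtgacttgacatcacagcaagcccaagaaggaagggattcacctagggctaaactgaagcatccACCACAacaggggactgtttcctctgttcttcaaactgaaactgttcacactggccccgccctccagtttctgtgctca
On either strand, TGTGGT was found before 3 of the 8 genes (Gimap1, Gimap4 and Gimap7) and in 14.0% of all 32851 promoter windows of the same length. The letters GTAAACA were found before Gimap3 alone, and in 3.17% of all windows. The ETS letters GGAAGT were found before Gimap5 and Gimap6, and in 19.7% of all windows. The T-box letters AGGTGT were found before 0 of the 8 genes, and in 11.8% of all windows. These matches describe letters in the windows and not bound sites.

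GIMAP transcripts were detected in most cells of each library, and their level differed by subset. At least 1 GIMAP UMI was found in 99.0% of C57BL/6 cells, 93.1% of BM only cells and 94.3% of BM + Spl cells. In the C57BL/6 library the summed family level was 2089.7 CPM in NKT1-marker cells, 1878 in cells with both NKT1 and NKT2 markers, 952 in NKT2-marker cells, 548 in cycling T cells and 357 in NKT17-marker cells. In the BM only library it was 1712 CPM in NKT1-marker, 1533 in double-marker, 1419.9 in Treg-marker, 1179 in CD8-marker, 721 in NKT2-marker, 564 in cycling and 477 in NKT17-marker cells. In the BM + Spl library the order at the top differed, with 1654 CPM in Treg-marker, 1541 in CD8-marker, 1425 in NKT1-marker, 1340.5 in double-marker, 830.0 in NKT2-marker, 602 in cycling and 575 in NKT17-marker cells. The NKT17-marker and cycling values of this library had overlapping intervals (518 to 637 CPM and 586 to 619 CPM). B cell-marker cells held 961 and 1177 CPM in the BM only and BM + Spl libraries, and plasmacytoid dendritic cell-marker cells held 219 and 365 CPM.

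The order depended on the scale. NKT1-marker cells held fewer UMIs in all than NKT2-marker cells (medians of 6131 against 13131 in the C57BL/6 library, 4351 against 8212 in BM only and 4508 against 9043 in BM + Spl). Counted per cell, the summed family was 13.6 UMIs in NKT1-marker and 13.1 UMIs in NKT2-marker cells of the C57BL/6 library, 7.65 and 6.17 in BM only, and 7.70 and 7.76 in BM + Spl. The share of total UMIs taken by the family therefore differed between these subsets far more than the number of GIMAP UMIs per cell.

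**Figure D1:**
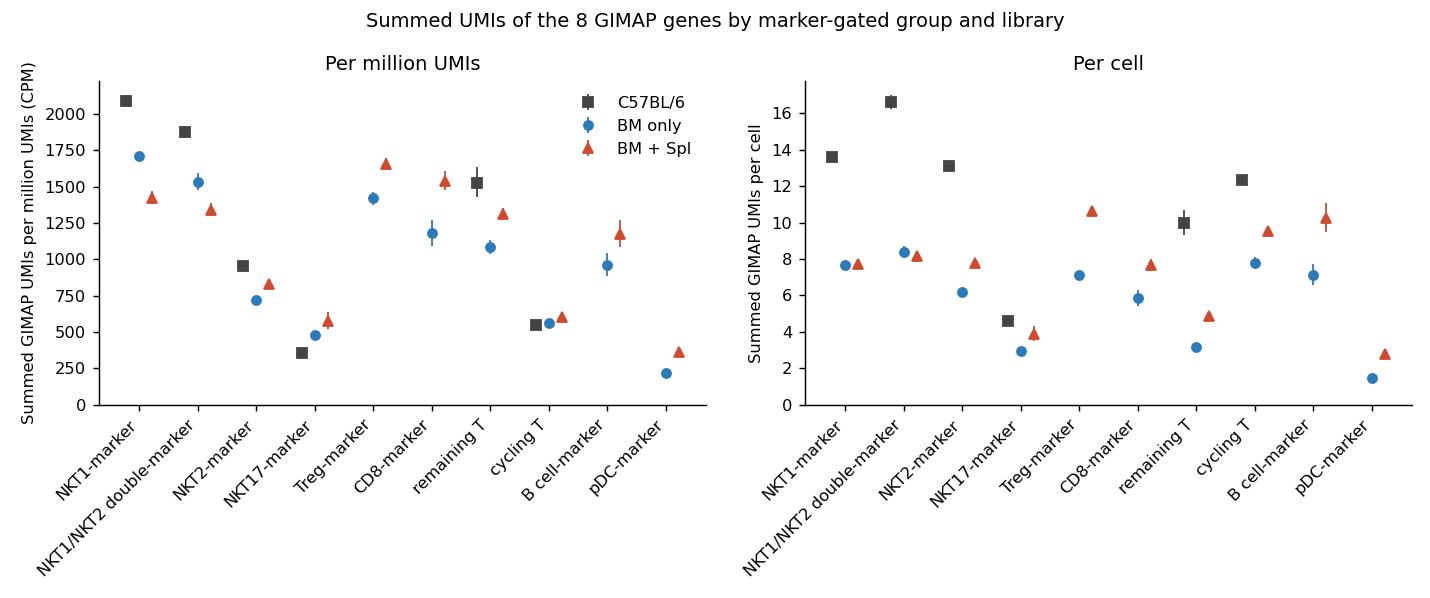
Summed level of the 8 GIMAP genes by subset and library, as CPM (counts per 1000000 UMIs) in the left panel and as UMIs per cell in the right panel, with exact 95% counting intervals. Remaining T cells fell in no named subset, and pDC stands for plasmacytoid dendritic cell. NKT1-marker cells stood above NKT2-marker cells by CPM in all 3 libraries, while per cell they held 13.6 against 13.1, 7.65 against 6.17 and 7.70 against 7.76 UMIs.

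NKT1-marker cells were compared with NKT2-marker cells inside each library, where kit, age and software do not differ. NKT1 cells are the interferon-gamma-producing iNKT subset and NKT2 cells the interleukin-4-producing one. Of NKT1-marker cells with an assigned V beta, 92.4% in BM only and 37.4% in BM + Spl used the V beta segments of iNKT cells. For NKT2-marker cells this share was 93.7% in both BMT libraries, so the NKT1-marker cells of BM + Spl were not a like population. The log2 ratio of summed GIMAP CPM was 1.13 (interval 1.10 to 1.17) in the C57BL/6 library, 1.25 (1.21 to 1.29) in BM only and 0.78 (0.73 to 0.83) in BM + Spl. Past 1.5-fold, 8 of 8 members were higher by CPM in the C57BL/6 library, 8 of 8 in BM only and 5 of 8 in BM + Spl, where 15.2%, 16.4% and 17.2% of all genes with at least 100 UMIs were. The median member ratio was 1.20, 1.30 and 0.82, and the median of all genes was 0.05, -0.02 and 0.04. Per cell only 2 members were past 1.5-fold higher in each library (2.47%, 4.84% and 5.75% of all genes), and 0, 0 and 3 were lower (80.8%, 74.9% and 62.7% of all genes). The per-cell log2 ratio of the sum was 0.06, 0.31 and -0.01, so the direction of the sum turned with the scale in BM + Spl.

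Gimap3 and Gimap7 were the members higher in NKT1-marker cells past 1.5-fold on both scales in the 3 libraries. Gimap3 stood at 362 CPM in NKT1-marker and 62.1 CPM in NKT2-marker cells of the C57BL/6 library, at 387 and 80.9 CPM in BM only, and at 329.8 and 83.6 CPM in BM + Spl. Its log2 ratio was 2.55 (2.45 to 2.64), 2.26 (2.14 to 2.38) and 1.98 (1.86 to 2.10) by CPM and 1.47, 1.32 and 1.19 per cell. Gimap3 was thus higher in NKT1-marker cells of each library, with the smallest ratio in BM + Spl. Gimap7 stood at 24.8 CPM against 7.18 CPM in the C57BL/6 library, 53.1 against 10.1 in BM only, and 70.8 against 10.9 in BM + Spl. Its log2 ratio was 1.79 (1.45 to 2.12), 2.39 and 2.69 by CPM and 0.71, 1.45 and 1.90 per cell.

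At equal depth the same contrast was seen as the share of cells with a UMI. With each cell thinned to 2700 UMIs, Gimap3 was found in 61.8% of NKT1-marker and 15.5% of NKT2-marker cells of the C57BL/6 library (84.4% and 42.7% before thinning). It was found in 64.1% and 18.6% of these cells in BM only (74.9% and 40.0% before thinning), and in 56.3% and 20.9% in BM + Spl (75.8% and 43.8% before thinning). Plasmacytoid dendritic cell-marker cells, among the lowest groups for the family, gave 4.79% in BM only and 6.53% in BM + Spl. Thinning left out 330 NKT1-marker and 50 NKT2-marker cells of the BM only library, and 52 and 41 of BM + Spl, as too shallow.

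Gimap4, the member tied to apoptosis, differed by CPM in the C57BL/6 and BM only libraries and was near equality in BM + Spl. The NKT1-marker cells of BM + Spl also differed in V beta use, as given above, and the part of this was not tested. Gimap4 stood at 600.9 CPM in NKT1-marker and 324.9 CPM in NKT2-marker cells of the C57BL/6 library and at 285 and 129 CPM in BM only. In BM + Spl it stood at 164.6 and 158.7 CPM. Its log2 ratio was 0.89, 1.14 and 0.05 (-0.09 to 0.19) by CPM, and -0.19, 0.20 and -0.74 per cell, so its direction turned with the scale in the C57BL/6 and BM + Spl libraries. Gimap6 followed a like course, with log2 ratios of 1.13, 0.91 and 0.09 by CPM, and of 0.05, -0.02 and -0.70 per cell, below 0 in both BMT libraries. Gimap5, which T cells need to survive, did not, with log2 ratios of 1.27, 1.45 and 1.34 by CPM and 0.19, 0.51 and 0.54 per cell. Gimap8 gave 1.45, 1.51 and 1.01 by CPM and 0.37, 0.57 and 0.21 per cell, on the same side of 0 on both scales. Gimap1 gave 0.81, 0.68 and 0.64 by CPM but -0.27, -0.25 and -0.15 per cell. Gimap9 gave 0.59, 0.89 and 0.20 by CPM but -0.48, -0.05 and -0.59 per cell, so both Gimap1 and Gimap9 changed side with the scale in each library.

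The share of the family's own UMIs that each member took does not depend on the depth of the subset. Gimap3 took 6.52%, 11.2% and 10.1% of GIMAP UMIs in NKT2-marker cells of the 3 libraries, and 17.3%, 22.6% and 23.1% in NKT1-marker cells. The intervals of both subsets did not overlap in any of the 3 libraries. Gimap4 took 34.1%, 17.9% and 19.1% in NKT2-marker cells and 28.8%, 16.6% and 11.5% in NKT1-marker cells. Gimap4 thus made up a smaller part of the family in NKT1-marker cells, though in BM only the intervals (16.9% to 18.9% and 16.1% to 17.2%) overlapped.

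**Figure D2:**
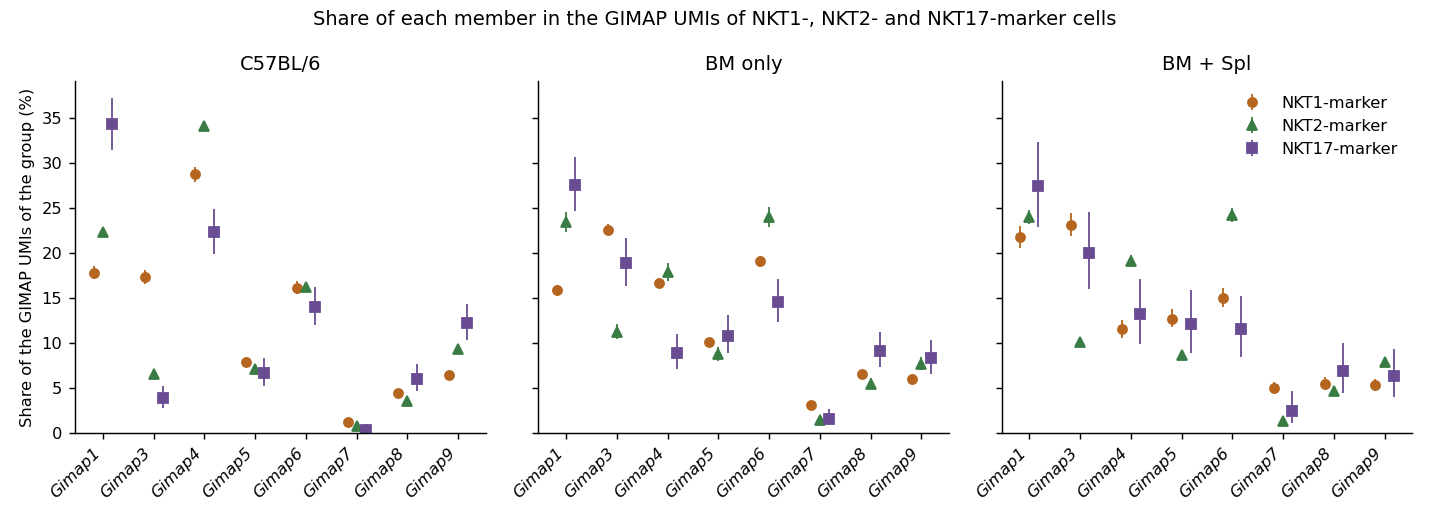
Percent of all GIMAP UMIs that came from each member, in NKT1-, NKT2- and NKT17-marker cells of each library (1 panel per library), with exact 95% binomial intervals. Gimap3 took 6.52% to 11.2% of the family in NKT2-marker cells and 17.3% to 23.1% in NKT1-marker cells.

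Cells with both NKT1 and NKT2 markers lay between the subsets by CPM in each library. Their summed GIMAP log2 CPM ratio over NKT2-marker cells was 0.98, 1.09 and 0.69, with 7, 8 and 5 of 8 members past 1.5-fold higher, against 7.54%, 11.2% and 15.5% of all genes. Per cell the median member ratio was 0.40, 0.49 and 0.13, beside -0.62, -0.64 and -0.59 for all genes. Per cell, double-marker cells held more GIMAP UMIs than either subset in each library, so they lay between the subsets by CPM alone. Of those with an assigned V beta, 80.7% in BM only and 42.5% in BM + Spl used the V beta segments of iNKT cells.

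Within NKT2-marker cells, Gimap5 was lower in cells with a Ccr7 UMI and in cells with interferon-induced markers. In cells with a Ccr7 UMI, a mark of iNKT precursors and emigrants, the log2 CPM ratio of Gimap5 over cells without one was -0.94, -0.82 and -0.63 in the 3 libraries, and that of the summed family was -0.53, -0.29 and -0.32 by CPM but -0.21, 0.14 and -0.03 per cell, so that its direction turned with the scale in BM only. Past 1.5-fold, 3 of 8, 1 of 7 and 1 of 8 members were lower, against 1.66%, 1.56% and 1.38% of all genes. In the C57BL/6 library these were Gimap5, Gimap3 (-0.89 by CPM and -0.57 per cell) and Gimap8 (-0.72 and -0.39), and in each BMT library Gimap5 alone. Gimap3 gave -0.58 and -0.31 by CPM in the BMT libraries. In cells with at least 3 of 6 interferon-induced markers, Gimap5 stood at 39.2 CPM against 67.5 CPM in BM only and at 49.3 against 78.1 CPM in BM + Spl, log2 ratios of -0.78 (-1.24 to -0.35) and -0.66 (-0.92 to -0.42). In the C57BL/6 library the Gimap5 ratio was -0.33, and the summed family gave -0.01, -0.07 and 0.02. Past 1.5-fold, 0 of 8, 1 of 7 and 1 of 8 members were lower, against 1.73%, 4.94% and 4.59% of all genes. Per cell the Gimap5 ratio was -0.61, -0.40 and -0.33 for the Ccr7 split and -0.24, -0.61 and -0.63 for the interferon split, so Gimap5 was lower on both scales. Cells with a Ccr7 UMI were also deeper (medians of 14814, 9237 and 9603 UMIs against 11841, 6932 and 7912), and the part of depth in these differences was not tested.

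NKT17-marker cells, the interleukin-17-producing subset, had the lowest summed CPM of the T cell groups listed above in each library, with an interval that overlapped that of cycling cells in BM + Spl. Their log2 ratio of summed CPM over NKT2-marker cells was -1.41 (-1.503 to -1.325) in the C57BL/6 library, -0.60 (-0.70 to -0.49) in BM only and -0.53 (-0.68 to -0.38) in BM + Spl, and per cell it was -1.51, -1.08 and -1.003. Past 1.5-fold, 8 of 8 members were lower by CPM in the C57BL/6 library, 2 of the 7 with at least 100 UMIs in BM only and 3 of 8 in BM + Spl, against 7.88%, 10.2% and 14.4% of all genes. Gimap4 was past 1.5-fold lower in each library, with log2 CPM ratios of -2.02, -1.60 and -1.07, as was Gimap6, with -1.62, -1.31 and -1.60. By CPM Gimap3 was lower in the C57BL/6 library alone. It stood at 14.0 CPM in NKT17-marker and 62.1 CPM in NKT2-marker cells of the C57BL/6 library (42 UMIs in 234 cells). It stood at 90.4 and 80.9 CPM in BM only, and at 115 and 83.6 CPM in BM + Spl. The log2 ratio of Gimap3 was -2.15 (-2.63 to -1.71), 0.16 (-0.10 to 0.41) and 0.46 (0.10 to 0.81) by CPM, but per cell it was below 0 in BM only and near 0 in BM + Spl, at 0.55 against 0.69 UMIs and 0.78 against 0.78 UMIs. Gimap3 took 3.91%, 18.9% and 20.1% of GIMAP UMIs in NKT17-marker cells. Among NKT17-marker cells with an assigned V beta, 74.4% in BM only and 50.6% in BM + Spl used the V beta segments of iNKT cells, and within those of BM only Gimap3 took 17.4% of GIMAP UMIs. NKT17-marker cells of the BMT libraries also held more of the NKT1 marker list (511 and 469 CPM against 139 CPM in the C57BL/6 library). They held less of the NKT2 list (1029 and 927 CPM against 1930 CPM) and more of the NKT17 list (1317 and 1022 CPM against 616 CPM). The cells were gated on the NKT17 list, so its level describes the gate. Their median depths were 5426 and 6252.5 UMIs against 11810.5 UMIs in the C57BL/6 library, which also differed in software, age and gene table. The part of these differences in the Gimap3 level was not tested. The log2 CPM ratios of Gimap1, Gimap5, Gimap7, Gimap8 and Gimap9 ran from -2.43 to -0.65 in the C57BL/6 library, from -0.49 to 0.15 in BM only and from -0.85 to 0.38 in BM + Spl, and per cell they were below 0 in each library. Gimap7 had only 4, 14 and 9 UMIs in NKT17-marker cells.

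The BMT libraries held 547 and 582 Treg-marker cells, defined by Foxp3, the regulatory T cell factor, against 2 cells in the C57BL/6 library. Gimap7 had the largest ratio over NKT2-marker cells of the 8 members there. Its level was 148 CPM in Treg-marker cells and 10.1 CPM in NKT2-marker cells of BM only, and 207 and 10.9 CPM in BM + Spl. The log2 ratio was 3.87 (3.52 to 4.23) and 4.24 (3.99 to 4.50) by CPM and 3.09 and 3.70 per cell. Gimap7 was also higher in Treg-marker than in NKT1-marker cells, by a log2 CPM ratio of 1.48 (1.29 to 1.66) and 1.55 (1.33 to 1.77). At 2700 UMIs per cell it was found in 30.1% of Treg-marker, 11.7% of NKT1-marker and 3.62% of NKT2-marker cells of BM only (42.2%, 16.6% and 7.17% before thinning). In BM + Spl it was found in 43.9%, 17.3% and 2.41% of these cells (61.3%, 26.7% and 8.51% before thinning), and in 4.70% of plasmacytoid dendritic cell-marker cells. B cell-marker cells gave 13.75% in BM only and 27.1% in BM + Spl, above NKT1-marker cells of the same library. CD8-marker cells, which had escaped the depletion, were also high for Gimap7, with log2 CPM ratios over NKT2-marker cells of 3.12 and 3.50. Past 1.5-fold over NKT2-marker cells, 5 of 8 members were higher by CPM in Treg-marker cells in either library, against 20.6% and 18.8% of all genes. These were Gimap1, Gimap3, Gimap5, Gimap7 and Gimap8, with Gimap3 at log2 CPM ratios of 2.005 and 2.17, while Gimap1, Gimap5 and Gimap8 ran from 0.81 to 1.44 and from 0.61 to 1.13. Per cell 3 of 8 members were higher in either library and 1 was lower in BM only, and the share of all genes is not given for these counts. The median member ratio per cell was 0.07 and 0.31, beside -0.67 and -0.48 for all genes. Gimap4 gave 0.29 and 0.37 by CPM but -0.48 and -0.17 per cell. Gimap6 gave 0.26 and 0.21 by CPM but -0.52 and -0.33 per cell, and Gimap9 gave 0.18 and 0.43 by CPM but -0.59 and -0.11 per cell. Only 30.3% and 26.7% of Treg-marker cells with an assigned V beta used iNKT V beta segments, against 93.7% of NKT2-marker cells in both BMT libraries.

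Cycling T cells, defined by 3 or more of 8 proliferation genes, were compared with the other T cells of their library. The log2 ratio of summed GIMAP CPM was -1.06 (-1.09 to -1.03) in the C57BL/6 library, -1.14 (-1.20 to -1.08) in BM only and -0.90 (-0.94 to -0.86) in BM + Spl. Per cell it was -0.08, 0.26 and 0.36, so in the BMT libraries the direction turned with the scale. Cycling cells held more UMIs in all (medians of 21992, 13730 and 15592, against 10533, 4510 and 5553 in the other T cells). Past 1.5-fold by CPM, 7, 7 and 6 of 8 members were lower, against 16.2%, 18.6% and 17.9% of all genes, and per cell 2, 0 and 0 members were lower, against 1.79%, 1.15% and 1.34% of all genes.

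Gimap3, Gimap8 and Gimap9 stood at the ends of this comparison. Gimap3 stood at 23.9 CPM in cycling and 111 CPM in other T cells of the C57BL/6 library, at 78.9 and 253 CPM in BM only, and at 71.1 and 199.7 CPM in BM + Spl. Its log2 ratio was -2.21, -1.68 and -1.49 by CPM. Gimap8 had log2 CPM ratios of -1.91, -1.64 and -1.28. Gimap9 differed least, with log2 CPM ratios of -0.27, -0.53 and -0.25, and per cell it was higher in cycling cells, with log2 ratios of 0.71, 0.87 and 1.01. The log2 ratios of Gimap1, Gimap4, Gimap5, Gimap6 and Gimap7 ran from -1.29 to -0.92, from -1.46 to -0.63 and from -1.11 to -0.51 by CPM, but from -0.30 to 0.06, from -0.06 to 0.78 and from 0.15 to 0.75 per cell. Within NKT2-marker cells alone the log2 CPM ratio of the summed family was -0.79, -0.85 and -0.83, and the share of GIMAP UMIs that were Gimap9 was 9.32%, 7.72% and 7.88% in non-cycling and 14.3%, 12.8% and 12.6% in cycling cells. The Gimap9 intervals of cycling and non-cycling NKT2-marker cells did not overlap in any of the 3 libraries. For Gimap3 these shares were 6.52%, 11.2% and 10.1% in non-cycling and 3.87%, 7.44% and 6.76% in cycling cells.

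**Figure D3:**
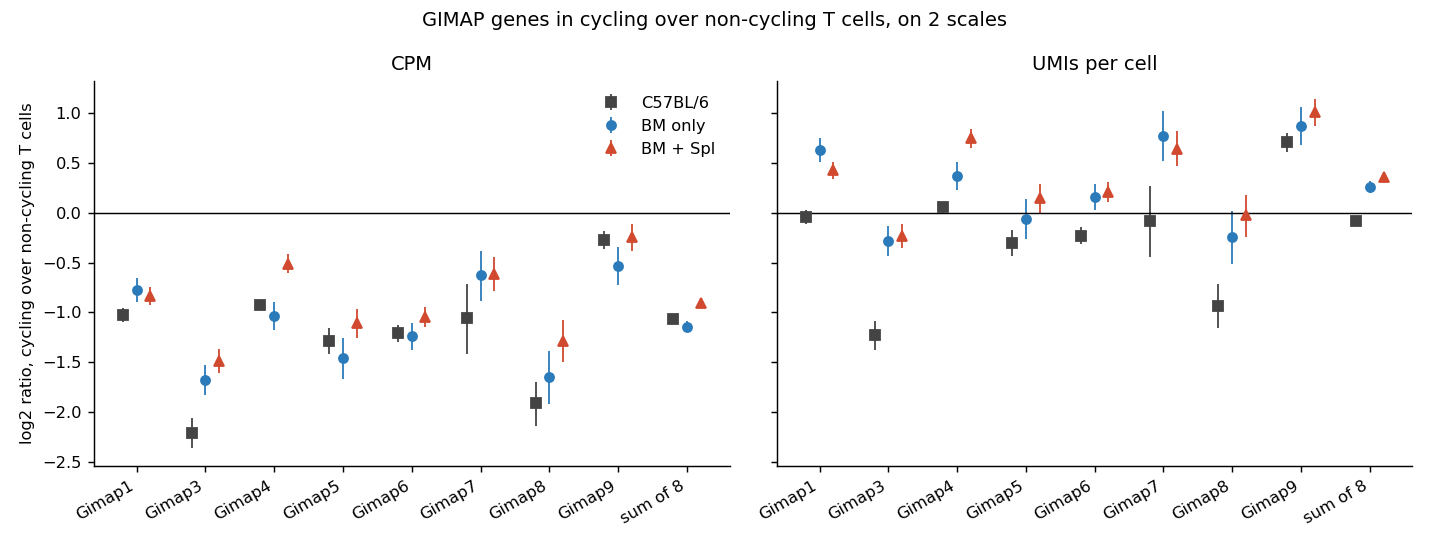
Log2 ratio of cycling over other T cells for each GIMAP member and their sum in the 3 libraries, by CPM in one panel and by UMIs per cell in the other, with exact 95% counting intervals. The sum lies between -1.14 and -0.90 by CPM and between -0.08 and 0.36 per cell, so that most members change side between the panels in the BMT libraries; Gimap3 lies lowest and Gimap9 highest of the 8 members in each library on either scale.

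BM + Spl was compared with BM only to ask how the family stood in the thymus with and without GvHD. Over all T cells the summed level was 1004 CPM in BM + Spl and 1143.5 CPM in BM only, a log2 ratio of -0.19 (-0.21 to -0.17), and per cell it was 7.68 against 6.57 UMIs, a log2 ratio of 0.23 in the other direction. The per-cell median of all genes was 0.42, above that of the sum. No member was past 1.5-fold by CPM, higher or lower (5.04% and 7% of all genes), and per cell 1 of 8 was higher, Gimap7 at 0.64, against 25.6% of all genes. By CPM Gimap8 gave -0.54, Gimap3 -0.42, Gimap4 -0.23, Gimap6 -0.20, Gimap5 -0.16, Gimap9 -0.09, Gimap1 0.02 and Gimap7 0.23. Per cell the members other than Gimap7 ran from -0.12 (Gimap8) to 0.43 (Gimap1), with Gimap4, Gimap5, Gimap6 and Gimap9 above 0, against below 0 by CPM. BM + Spl held 562 NKT1-marker and 1574 NKT2-marker cells, and BM only held 2403 and 934. With the 16 cell groups weighted as in BM only, the log2 ratio of the sum was -0.03, and those of the members ran from -0.31 (Gimap8) to 0.41 (Gimap7).

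NKT2-marker and NKT1-marker cells gave different accounts of this comparison. In NKT2-marker cells the sum was 830.0 CPM in BM + Spl and 721 CPM in BM only, a log2 ratio of 0.20 (0.16 to 0.25), and no member was past 1.5-fold higher or lower (0.709% and 1.61% of all genes). Gimap4 gave 0.30, Gimap1 0.24, Gimap9 0.23, Gimap6 0.21, Gimap5 0.19, Gimap7 0.11, Gimap3 0.05 and Gimap8 -0.02 by CPM, and the range per cell was from 0.11 to 0.425. In NKT1-marker cells the sum was 1425 CPM in BM + Spl and 1712 CPM in BM only, a log2 ratio of -0.26 (-0.31 to -0.22), while per cell it was level at 7.70 and 7.65 UMIs. The per-cell median of all genes there was 0.31, above that of the sum. Gimap4 stood at 165 CPM in BM + Spl and 285 CPM in BM only, a log2 ratio of -0.79 (-0.93 to -0.66) by CPM and -0.52 per cell. Gimap6 stood at 215 and 327 CPM, a log2 ratio of -0.61 (-0.73 to -0.48) by CPM and -0.33 per cell. Gimap4 and Gimap6 were the 2 of 8 members past 1.5-fold lower in NKT1-marker cells, where 9.42% of all genes were, and 0 were higher, where 10.1% of all genes were. Gimap7 lay on the other side, at 70.8 and 53.1 CPM, a log2 ratio of 0.41 (0.18 to 0.64) by CPM and 0.69 per cell. Gimap5 gave 0.07 (-0.07 to 0.21) and Gimap1 gave 0.19 (0.09 to 0.30) by CPM. Gimap8 gave -0.52 and Gimap9 gave -0.45 by CPM, and -0.25 and -0.18 per cell. Gimap3 gave -0.23 (-0.33 to -0.13) by CPM but 0.04 (-0.06 to 0.14) per cell. By CPM the median member ratio was -0.34 and the median of all genes was 0.04.

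The NKT1-marker cells of both libraries differed in more than GvHD. Of those with an assigned V beta, 1974 of 2136 (92.4%) in BM only and 184 of 492 (37.4%) in BM + Spl used iNKT V beta segments. Within iNKT V beta cells the log2 CPM ratio of the sum was -0.14 (-0.22 to -0.07), with Gimap4 at -0.44 (-0.65 to -0.23), Gimap6 at -0.49 (-0.69 to -0.29) and Gimap8 at -0.67 (-1.05 to -0.32). Gimap8 was then the only member past 1.5-fold lower, where 12.5% of all genes were. Within cells of other V beta (308 in BM + Spl and 162 in BM only) Gimap4 was at -0.83 and Gimap6 at -0.85, the 2 members past 1.5-fold lower where 7.83% of all genes were. Gimap4 and Gimap6 were lower by CPM on either side of the V beta split, with Gimap4 smaller in difference among iNKT V beta cells. The split does not isolate iNKT cells, since 37.5% of CD8-marker and 26.7% of Treg-marker cells of BM + Spl with an assigned V beta passed it. The 37.4% of NKT1-marker cells of BM + Spl was near that CD8-marker share. The split therefore does not give like populations in both libraries, and cannot separate cell identity from GvHD. Among iNKT V beta NKT1-marker cells, Ccr7 stood at 288 CPM in BM + Spl and 4.26 CPM in BM only, and Tnfrsf4 at 510 and 13.0 CPM. The part of such differences in the GIMAP levels was not tested.

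NKT1-marker cells of BM + Spl also carried more of the Treg list, at 853 CPM against 104 CPM, with 4 of 5 markers detected against 5 of 5. Tnfrsf4 made up most of the difference, at 453 CPM against 20.03 CPM. Ctla4 stood at 172 against 11.1 CPM, Ikzf2 at 127 against 48.1 CPM and Il2ra at 101 against 24.6 CPM. Foxp3 had 0 UMIs against 3. Cells with Foxp3 and another marker of the list were assigned to Treg first, so the gate set this low count. The myeloid list summed to 452 CPM in BM + Spl and 161 CPM in BM only, with 6 and 7 of 11 markers detected, and Cst3 gave 449 and 158 CPM of it. C1qa, C1qb, C1qc, Csf1r and Lyz2 had at most 2 UMIs each in NKT1-marker cells of either library. Cells with at least 3 myeloid markers were assigned before NKT1, so the gate set these low counts in part. The part of these markers in the GIMAP differences was not tested.

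**Figure D4:**
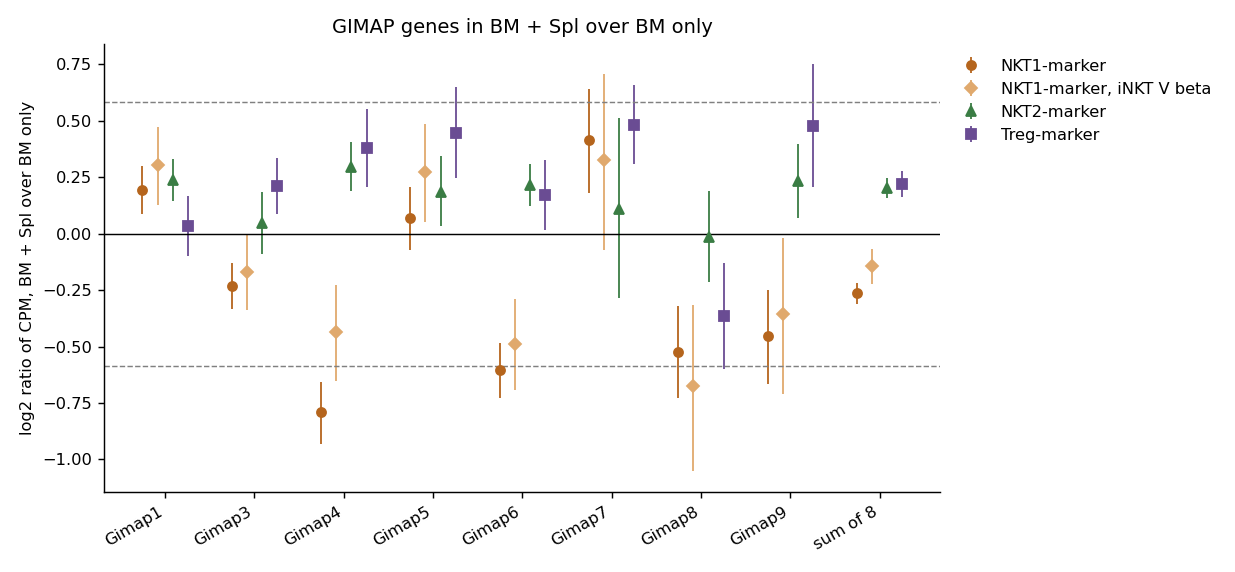
Log2 ratio of CPM, BM + Spl over BM only, for each GIMAP member and their sum in NKT1-marker cells, NKT1-marker cells with iNKT V beta, NKT2-marker cells and Treg-marker cells, with exact 95% counting intervals and dashed lines at 1.5-fold. Gimap4 lies at -0.79 in NKT1-marker, -0.44 in NKT1-marker iNKT V beta and 0.30 in NKT2-marker cells. Per cell the sum of NKT1-marker cells was level at 7.70 and 7.65 UMIs, where the median log2 ratio of all genes was 0.31.

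In the other subsets, at most 1 member with at least 100 UMIs was past 1.5-fold by CPM between BM + Spl and BM only, while per cell more were in Treg-marker and remaining T cells. Treg-marker cells gave a log2 CPM ratio of 0.22 for the sum, with 0 members past 1.5-fold higher or lower (2.25% and 4.24% of all genes), Gimap7 at 0.48 and Gimap8 at -0.36. Per cell the Treg-marker sum gave 0.58, with 4 of 8 members (Gimap4, Gimap5, Gimap7 and Gimap9) past 1.5-fold higher where 16.3% of all genes were, and a median member of 0.66 beside 0.31 for all genes. Remaining T cells gave 0.28 by CPM, with 0 members past 1.5-fold higher (3.01% of all genes), and 0.62 per cell, with 4 of 8 (Gimap3, Gimap4, Gimap6 and Gimap7) higher where 17% of all genes were. CD8-marker cells gave 0.39, with Gimap6 at 0.89 as the 1 member past 1.5-fold higher (3.29% of all genes). NKT17-marker cells gave 0.27, with Gimap4 at 0.84 as the 1 of 6 tested members past 1.5-fold higher (5.91% of all genes). Double-marker cells gave -0.19, with Gimap4 at -0.64 as the 1 member past 1.5-fold lower (6.87% of all genes). Cycling T cells gave 0.09.

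Other genes tied to the family's roles were counted in the same comparison. In NKT1-marker cells, 3 of 20 genes of T cell quiescence and egress were past 1.5-fold higher in BM + Spl and 6 lower, with a list median of -0.21, where 10.1% of all genes were higher and 9.42% lower. They included Ccr7, a lymphoid homing receptor, with a log2 CPM ratio of 4.21, and Klf3, a factor related to the quiescence factor Klf2, with -2.41. Of 15 survival and autophagy genes, 2 were higher and 0 lower in NKT1-marker cells, with Gabarapl1, an autophagy adaptor, at 1.80 and Bcl2l1, an anti-apoptotic gene, at 1.25. Bcl2, whose protein GIMAP proteins have been reported to bind, was at -0.17 in these cells. Of 13 other immune GTPases, 2 were higher and 5 lower. The highest were the interferon-induced Iigp1 at 1.41 and Gbp6 at 0.67, and the lowest were Arl4c at -0.996 and Gbp9 at -0.83. The medians of these lists were 0.14 and -0.49, beside 0.04 for all genes. In NKT2-marker cells 0 genes of the 3 lists were past 1.5-fold in either direction, as were 0 GIMAP members. Few genes of any kind were, at 0.709% higher and 1.61% lower, so these counts are not particular to the lists or the family.

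Likeness to the family was measured as Pearson's r of log2 CPM over 23 subset-by-library groups, with each library centred on its own mean. B cell-marker and plasmacytoid dendritic cell-marker cells of the BMT libraries were among these groups, so r does not describe T cell subsets alone. The groups share libraries and depth, so r is a description. The 9913 genes with at least 500 UMIs were ranked, and the members among them were passed over. The most alike were Cd2 (0.93), an adhesion receptor of T cells, Pglyrp1 (0.87), Ptpn18 (0.87), Isg20 (0.87) and Ifi214 (0.86). Within the family, r between pairs ran from 0.64 (Gimap7 with Gimap9) to 0.97 (Gimap1 with Gimap5). Gimap7 was the member least like the summed level of the other 7, at 0.82, and Gimap1 the most, at 0.963, with Gimap5 next at 0.962.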

How the data were processed

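For each library the authors deposited a matrix of whole-number UMI counts per gene and cell, made with Cell Ranger (3.0.2 in the C57BL/6 file header, 7.0.0 in the BMT headers) on mm10; the labels name Seurat 4.0.2 for later steps. The matrices were read as deposited. Cells were kept above 200 and below 6000 genes with mitochondrial genes below 10% of UMIs, doublets were not called or removed, and pooled UMIs were scaled to 1000000 over the 30406 gene identifiers found in all 3 libraries, or divided by the number of cells.

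Each cell was assigned in a fixed order: B cell (at least 2 of 6 markers), plasmacytoid dendritic (2 of 5), myeloid (3 of 11), CD4+CD8+ thymocyte (2 of 5), Treg (Foxp3 with at least 1 of 4 others), CD8 (Cd8a and Cd8b1, no Cd4), NKT17 (2 of 6), NKT1 or NKT2 (at least 3 of 8, and 2 more than of the other list), double-marker (2 of each list). T cells with at least 3 of 8 proliferation markers were taken as cycling and left out of the subsets. V beta was assigned in BMT libraries only, since 19.8% of C57BL/6 cells against 89.5% and 89.2% of BMT cells had a Trbv UMI. At least 80% of the Trbv UMIs of a cell had to come from either the iNKT list or other segments. The iNKT list (Trbv1, Trbv12-2, Trbv13-1, Trbv13-2, Trbv13-3 and Trbv29) was a choice made here, and iNKT V beta means this list throughout. The part of any single segment, such as Trbv12-2, in the shares was not tested.

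With 1 library per condition no test was run. Levels have exact Poisson, shares exact Clopper-Pearson and ratios exact conditional binomial 95% intervals, all for counting error only. A member was counted when its ratio passed 1.5-fold and it had at least 100 UMIs in both groups together, and percentages of all genes follow the same rule. All 8 members are given in each main comparison, by value or by range; the genes most alike, the neighbours and the 3 gene lists follow rules written with earlier results of these data known, as was the choice of the members. Pooled UMI totals of NKT2-marker cells of BM only were also simulated by Poisson draws (6921 genes, 200 of them changed 2-fold). There 95.3% of intervals held the true ratio, 100% of changed genes were counted and 0.0298% of unchanged ones were. The draws held only the counting error that the intervals assume. They check the calculation and cannot speak to the spread between cells or mice. Promoter windows came from RefSeq tables of GRCm38.p6, which held 9 windows for the 8 genes (2 for Gimap8). Python 3.11.15, numpy 2.4.6, scipy 1.17.1, pandas 2.3.3 and matplotlib 3.10.9 were used.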

Additional observations from a re-analysis of the deposited data

Results flagged for a closer look

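Between BM + Spl and BM only, the summed family, Gimap4, Gimap6 and Gimap9 moved in opposite directions by CPM in NKT1-marker and NKT2-marker cells. The log2 ratio of the sum was -0.26 in NKT1-marker and 0.20 in NKT2-marker cells. For Gimap4 it was -0.79 and 0.30, for Gimap6 -0.61 and 0.21, and for Gimap9 -0.45 and 0.23. Each of these intervals lay on its own side of 0. By point value alone, Gimap1, Gimap5 and Gimap7 were above 0 in both subsets and Gimap8 was below 0 in both. The interval of Gimap5 in NKT1-marker cells took in 0. Gimap8 in NKT2-marker cells was near level, at 38.9 CPM in BM + Spl and 39.3 CPM in BM only. Gimap3 was below 0 in NKT1-marker cells and near 0 in NKT2-marker cells, at 83.6 and 80.9 CPM there. Of NKT1-marker cells with an assigned V beta, 92.4% in BM only and 37.4% in BM + Spl used iNKT V beta segments. Among those iNKT V beta cells the ratio of the sum was smaller in size. The difference between the subsets was not tested, because each condition is 1 library. Per cell the sum was level in NKT1-marker cells, where the median log2 ratio of all genes was 0.31.

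Gimap3 was lower in NKT17-marker than in NKT2-marker cells of the C57BL/6 library, with a log2 CPM ratio of -2.15, and higher in BM + Spl, with 0.46 by CPM, though per cell it was level there at 0.78 UMIs in either subset. This difference was not tested, and the libraries also differ in kit or software, age and transplantation, which cannot be told apart.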

How the results depend on the processing

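No paired analysis was possible because each condition is 1 library. No group has a second library to leave out in turn. The cells of 1 library share their animals and droplets, depth limits Gimap7 most (down to 4 UMIs in a subset), and no interval covers variation between mice. The per-cell scale, the restriction to iNKT V beta cells, the fixed make-up and the removal of shared barcodes were added after seeing the data. All values below are log2 ratios of the summed family unless a member is named, and where values moved the cause was not tested, except that UMIs per cell do not divide by a depth that differed between groups.

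BM + Spl over BM only, all T cells (-0.19): -0.15 with cells thinned to 2700 UMIs, -0.11 as the mean of CPM per cell, -0.23 without the 6% of cells with the most UMIs, 0.23 per cell, -0.40 in iNKT V beta cells and -0.027 with make-up fixed. Members past 1.5-fold were 1 higher per cell, where 25.6% of all genes were. In iNKT V beta cells 2 were lower, but the share of all genes was not computed there, so this count has no background. NKT2-marker cells (0.20) gave 0.33 per cell. NKT1-marker cells (-0.26) gave -0.10 thinned, -0.16 as mean CPM, 0.011 per cell and -0.14 in iNKT V beta cells.

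NKT1-marker over NKT2-marker cells in the C57BL/6 library (1.13) gave 1.09 thinned, 1.20 with 1 more marker, 1.05 without ribosomal and mitochondrial genes in the total, 1.09 by median of ratios, 1.04 as mean CPM and 0.057 per cell. BM only (1.25) gave 1.15 without those genes, 1.15 as mean CPM, 1.19 without the deepest cells and 0.31 per cell. BM + Spl (0.78) gave 0.89 thinned, 0.84 with 1 more marker, 0.65 without those genes and -0.010 per cell. Members past 1.5-fold by CPM that changed sign per cell were Gimap1 (-0.27), Gimap4 (-0.19) and Gimap9 (-0.48) in C57BL/6, Gimap1 (-0.25), Gimap6 (-0.023) and Gimap9 (-0.046) in BM only, and Gimap1 (-0.15) in BM + Spl.

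Cycling over other T cells in the C57BL/6 library (-1.06) gave -1.24 thinned, -1.20 without ribosomal and mitochondrial genes, -1.22 as mean CPM, -0.87 without the deepest cells and -0.079 per cell. BM only (-1.14) gave -1.02 thinned, -1.20 with 1 more marker, -1.08 by median of ratios, -0.70 without the deepest cells and 0.26 per cell. BM + Spl (-0.90) gave -0.96 without ribosomal and mitochondrial genes, -0.81 by median of ratios, -1.05 as mean CPM, -0.74 without the deepest cells and 0.36 per cell. Members past 1.5-fold by CPM that changed sign per cell were Gimap4 (0.058) in C57BL/6, Gimap1 (0.63), Gimap4 (0.37), Gimap6 (0.16) and Gimap7 (0.78) in BM only, and Gimap1 (0.43), Gimap5 (0.15), Gimap6 (0.21) and Gimap7 (0.65) in BM + Spl. Gimap7 in BM only also moved to 0.00086 thinned and 0.094 without the deepest cells. Over 72 member values, at any size, the sign was kept in 72 with no filter on cells, 72 as mean CPM, 70 thinned and 43 per cell; over 24 values between the BMT libraries, it was kept in 24 without shared barcodes and 21 in iNKT V beta cells.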

Other observations

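Among coding genes beside the GIMAP cluster, Tmem176b and Tmem176a followed it in part. Tmem176b and Tmem176a, the first coding genes after Gimap3, were high in NKT17-marker cells, where the family was low: Tmem176b stood at 159, 789 and 918 CPM there and at 5.20, 7.76 and 9.51 CPM in NKT2-marker cells. They lay on the same side as the family by CPM between NKT1-marker and NKT2-marker cells and between cycling and other T cells. NKT1-marker over NKT2-marker cells gave log2 ratios of 0.70, 1.84 and 3.50 for Tmem176b and 1.10, 1.60 and 3.18 for Tmem176a, and cycling over other T cells gave -1.10, -1.504 and -1.99 for Tmem176b and -1.46, -1.49 and -1.66 for Tmem176a. Rarres2, Repin1, Zfp775 and AI854703, which lie before Gimap8, had at most 6.96 CPM over all T cells of a library. AI854703, the nearest of them, went against the family for NKT1-marker over NKT2-marker cells, at -0.87, -0.73 and -0.63 (-1.43 to 0.08 in BM + Spl). Repin1 gave 1.10, 0.65 and 0.81 and Zfp775 gave 0.50, 0.24 and 1.17, while Rarres2 had only 1, 37 and 19 UMIs in T cells. Aoc1 and 1600015I10Rik had 0 UMIs in T cells.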
